A study of Caenorhabditis elegans with 14 samples.

Results

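The DNA damage checkpoint genes described here are chk-1 and 8 genes of the same pathway, atl-1, atm-1, cep-1, clk-2, hus-1, mrt-2, hpr-9 and hpr-17. They were taken from the array by name, and they cover 10 of 22490 array elements and 9 of 18864 named genes. The genes were chosen by the array ratio of chk-1, which was higher in CB4856 than in N2 in reproductive and old worms, and by membership of its pathway. The chk-1 values at those ages, and the change of chk-1 with age, are therefore a description and carry no test. The juvenile arrays, and the other 8 genes at all ages, were tested.

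Whole worms of 2 wild-type Caenorhabditis elegans strains were compared: CB4856, the Hawaiian isolate, and N2, the Bristol laboratory strain. Hermaphrodites were grown from synchronized eggs and collected as juveniles after 40 hours (t1), as reproductive worms after 96 hours (t2) and as old worms after 214 hours (t3). At every age RNA of CB4856 and of N2 was labelled with different dyes and hybridised to the same array, with 5 juvenile, 4 reproductive and 5 old arrays and with the dyes exchanged on some arrays of each age. Worms of t2 and t3, but not of t1, had been on plates with FUDR, a blocker of DNA synthesis that prevents offspring, so that age and FUDR cannot be told apart between t1 and t2. The juveniles carry the stage label late L3, whereas the methods call them late L4. Within an array, a difference in RNA and a sequence mismatch of 1 strain to the probe cannot be told apart. The methods state, citing earlier work, that SNPs between the strains alter hybridization little on these arrays, which was not tested here. Replicates 4 and 5 of t1 and t3 share the label numbers of replicates 1 and 2 with the dyes exchanged, as replicate 4 of t2 does with replicate 1, and whether they share RNA extracts is not stated. Nothing states that the arrays of an age came from separate cultures, so p-values measure the spread between arrays, which may be technical.

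Checkpoints stop the cell cycle when DNA is broken or replication stalls. The kinases ATL-1 and ATM-1, the worm counterparts of ATR and ATM, sense the damage, and a ring-shaped clamp of HUS-1, MRT-2 and HPR-9, placed on DNA with the help of HPR-17, assists them. CHK-1 acts below ATL-1 to hold the cycle, and CEP-1, the worm p53, turns on germ cell death. In the adult worm the cells that still divide are those of the germ line, and eggs and embryos carry a store of cell cycle and repair transcripts.

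The median spot intensity of an array and dye lay between 191 and 303 scanner units, over a median local background of 163 to 183 units. Between 39.3% and 63% of the elements were above background, meaning a spot mean more than 2 SD over the local background median. The arrays came from 4 scan sessions. Levels below are normalized log2 intensities and strain differences are log2 ratios of CB4856 over N2 within an array. An element was called at an adjusted p under 0.05 over all 22490 elements (limma, Benjamini-Hochberg). Levels of different genes are not set against each other, since each probe binds with its own strength.

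chk-1, the effector kinase, was higher in CB4856 than in N2 on all 14 arrays. In juveniles its spot intensity was 338, 347, 475, 530 and 366 units in CB4856, against 191, 208, 259, 197 and 205 units in N2, in replicates 1 to 5. In reproductive worms it was 941, 1195, 1521 and 656 units in CB4856, against 256, 274, 296 and 232 units in N2. In old worms it was 1173, 3856, 1160, 3970 and 2570 units in CB4856, against 295, 628, 338, 489 and 424 units in N2. The strains did not overlap at any age. CB4856 was above background on every array, while N2 was so on 1 of 5 juvenile arrays and on all later ones.

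**Figure D1:**
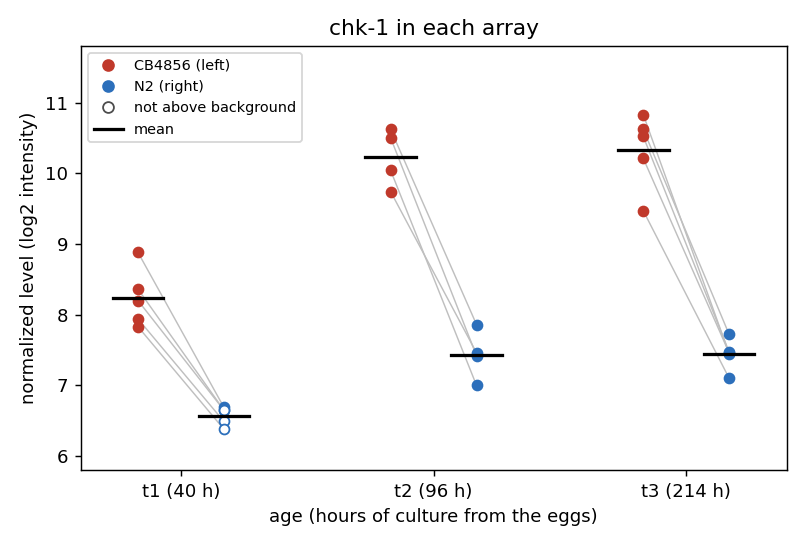
Normalized chk-1 level (log2 intensity, vertical axis) in each array of CB4856 and of N2 at 40, 96 and 214 hours, with open points not above background, black lines for means and grey lines joining the strains of an array. CB4856 lay between 7.83 and 10.83 and N2 between 6.38 and 7.86, and the strains never overlapped within an age.

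After normalization the chk-1 level in CB4856 averaged 8.24 ± 0.41 at t1, 10.23 ± 0.41 at t2 and 10.33 ± 0.53 at t3 (log2 intensity, SD, n = 5, 4 and 5 arrays). In N2 it averaged 6.57 ± 0.13, 7.43 ± 0.35 and 7.44 ± 0.22 at the same ages. From low to high, the order was N2 at t1, N2 at t2 and t3, CB4856 at t1, and CB4856 at t2 and t3. In each strain the levels of t2 and t3 overlapped and could not be ordered, and those of t2 lay wholly above those of t1. The highest N2 level at t2, 7.86, reached the lowest CB4856 level at t1, 7.83.

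In juveniles, the age that did not enter the choice of the genes, the log2 ratio of chk-1 was 1.71, 1.44, 1.55, 2.19 and 1.45 in replicates 1 to 5. The fitted ratio was 1.67 (SE 0.15, 95% interval 1.33 to 2), which is 3.17-fold higher in CB4856 with an adjusted p of 4.6e-05 (limma), and 1.92% of all elements were called at this age. As N2 was near background there, the value depended on the background correction: without one, as in the deposited ratios, the log2 ratio was 0.94 (adjusted p = 0.016 and 0.014, limma). With the scan session as a block it was 1.43 (adjusted p = 0.047, limma), and the call held under all alternatives that could be fitted and without each array in turn. The alternative limited to spots of scanner flag code 3 could not be fitted, since no juvenile chk-1 spot carried that code. In the same juveniles the elements of oocyte and early embryo genes leaned towards CB4856, with a median log2 ratio of 0.6, 24 of 26 above 0 and none called, and with log2 summed levels of 13.84 to 16.54 in CB4856 and 13.82 to 15.33 in N2. Their part in the chk-1 ratio was not tested.

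In reproductive worms the log2 ratio of chk-1 was 2.77, 3.04, 3.08 and 2.28, with a fitted value of 2.79 (SE 0.18, 6.92-fold). In old worms it was 2.75, 3.38, 2.37, 3.05 and 2.9, with a fitted value of 2.89 (SE 0.15, 7.41-fold). Among the 22490 elements this was the rank 24 ratio from the top in juveniles, rank 4 in reproductive worms and rank 3 in old worms. The ratio was 1.12 higher at t2 than at t1 (SE 0.23) and 0.1 higher at t3 than at t2 (SE 0.23). As the ratios at t2 and t3 chose the genes, the choice itself favoured a higher ratio there than at t1. Both strains had more chk-1 signal at t2 than at t1, by 1.99 on the log2 scale in CB4856 and by 0.86 in N2. Since 4 of 5 juvenile N2 spots were not above background, the juvenile ratio, its difference of 1.12 from t2 and the change of 0.86 in N2 depend on the background there and are not exact sizes. From t2 to t3 the differences were 0.1 in CB4856 and 0.0054 in N2. In old worms 7 of 15 body wall muscle elements were called higher in CB4856 (median log2 ratio 0.55, 12 above 0), beside 2.44% of all elements, against 0 called at t2 (median 0.33, 12 above 0) and at t1 (median 0.03, 9 above 0). Their part in the chk-1 value was not tested.

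The chk-1 ratio was above 0 in both dye orientations at each age. With CB4856 in Cy3 the mean log2 ratio was 1.82 at t1 (2 arrays), 2.28 at t2 (1 array) and 2.98 at t3 (2 arrays). With N2 in Cy3 it was 1.57, 2.97 and 2.83, on 3 arrays at each age. At t2 the lone array with CB4856 in Cy3 lay below the range of the other 3, 2.77 to 3.08. Within each of the 4 scan sessions the ratio at t2 was above that at t1, by pairs of 2.28 and 1.71, 2.77 and 2.19, 3.04 and 1.45, and 3.08 and 1.55. The t2 ratios entered the choice of the genes, so these pairs only describe the values.

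None of the other 9 elements was called between strains at t1, t2 or t3, beside 1.92%, 1.51% and 6.18% of all elements at these ages (limma). At an unadjusted p under 0.05 there were 2 at t1 (mrt-2 and hpr-9), 1 at t2 (hpr-17) and 3 at t3 (hpr-9, hpr-17 and atl-1). Over all elements, 2508, 2422 and 4495 of 22490 had such a p. The fitted log2 ratios ran from -0.11 up to 0.32 in juveniles, from -0.1 up to 0.32 in reproductive worms and from -0.55 up to 0.3 in old worms. Their medians were 0.19, 0.032 and 0.18, beside 0.0023, -0.0018 and 0.0026 over all elements, and 8, 8 and 7 of 9 were above 0. The upper ends of the 95% intervals reached at most 1.54-fold in juveniles and in reproductive worms and 1.47-fold in old worms, in favour of CB4856. For the genes above background on most arrays (cep-1, clk-2, hus-1, mrt-2, hpr-9 and hpr-17), a ratio of the size of chk-1 lay outside these intervals. The same held for atm-1 in old worms, where all its spots were above background (95% interval -0.19 to 0.55). For atl-1, and for atm-1 at t1 and t2, many spots were at background and the intervals set no such limit.

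**Figure D2:**
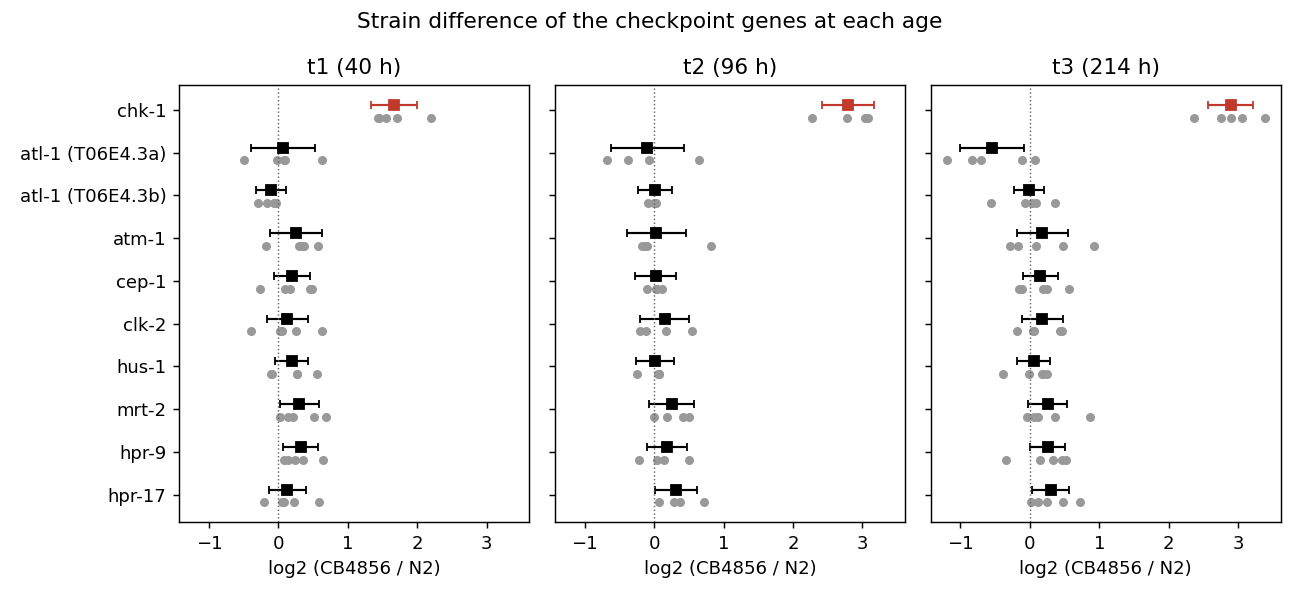
Log2 ratio of CB4856 over N2 (horizontal axis) of the 10 elements at t1, t2 and t3, with grey points for arrays and squares with bars for the fitted value and its 95% interval. chk-1 sits at 1.67, 2.79 and 2.89, and all other fitted values lie between -0.55 and 0.32.

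The strain difference of the other 9 elements did not change detectably with age either. None was called for t2 minus t1 or for t3 minus t2, where 0.382% and 0.116% of all elements were called, and none had an unadjusted p under 0.05 (limma). The changes in log2 ratio lay between -0.22 and 0.19 for t2 minus t1 and between -0.45 and 0.15 for t3 minus t2.

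The 2 sensor kinases were dim on these arrays. atl-1 had an element for each of 2 coding sequences, T06E4.3a and T06E4.3b. The element of T06E4.3a was above background in CB4856 on 0 of 5 juvenile, 1 of 4 reproductive and 2 of 5 old arrays, and in N2 on 1 of 5, 1 of 4 and 5 of 5 arrays. The element of T06E4.3b was above background on no array of t1 or t2, and at t3 on 1 of 5 arrays in CB4856 and 2 of 5 in N2, so that no fold is given for it. In old worms the log2 ratio of the T06E4.3a element was -0.83, -1.2, -0.11, -0.71 and 0.07, with a fitted value of -0.55 (SE 0.21, adjusted p = 0.16, limma). It was thus below 0 on 4 of 5 arrays, without passing the test.

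On t3 replicate 5 both atl-1 elements were bright in both strains. The T06E4.3a spot read 3243 units in CB4856 and 2800 units in N2, against 186 to 263 units in CB4856 and 259 to 368 units in N2 on the other old arrays. The T06E4.3b spot read 378 units in CB4856 and 331 units in N2, against 171 to 200 and 172 to 259 units. Both spots lie at row 6 and column 18 of their print blocks, which stand in block rows 1 and 2 of block column 1. Without that array the t3 over t2 change of the T06E4.3a element, averaged over both strains, was 0.12 on the log2 scale, against 0.83 with it.

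atm-1, the ATM kinase gene, was above background in CB4856 on 2 of 5, 2 of 4 and 5 of 5 arrays at t1, t2 and t3, and in N2 on 1 of 5, 3 of 4 and 5 of 5 arrays. Its level averaged 6.57 ± 0.27, 7.02 ± 0.44 and 7.66 ± 0.61 in CB4856 and 6.29 ± 0.27, 6.92 ± 0.14 and 7.46 ± 0.4 in N2 (log2 intensity, SD). The strains overlapped at each age. The change with age over both strains was 0.57 for t2 over t1 (adjusted p = 0.057, limma) and 0.56 for t3 over t2 (adjusted p = 0.085), neither of which passed.

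clk-2, the worm counterpart of the yeast and mammalian factor Tel2 that stabilises kinases of the ATM and ATR family, was the gene that changed most between reproductive and old worms. In old worms its level was 9.49, 10.07, 9.78, 9.68 and 10.17 in CB4856, against 8.22, 7.94, 8.5 and 7.67 in reproductive CB4856 worms. In N2 it was 9.03, 10.03, 9.97, 9.62 and 9.74 in old worms, against 8.05, 7.41, 8.7 and 7.79 in reproductive worms. The ages did not overlap in either strain. Over both strains clk-2 was 3.34-fold higher at t3 than at t2 (log2 1.74, SE 0.26, adjusted p = 0.00076, limma), with 3.33-fold in CB4856 and 3.26-fold in N2. Within the 3 scan sessions that held both ages the log2 change was 1.31 to 2.17. For t2 over t1 the log2 change was 0.6 (adjusted p = 0.1), which did not pass.

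Of the 3 clamp genes, hus-1 and hpr-9 were called with age and mrt-2 was not. Differences between these genes were not tested, and their 95% intervals for t2 over t1 overlapped (0.44 to 1.55, 0.16 to 0.95 and -0.36 to 0.91). hus-1 was 2-fold higher at t2 than at t1 over both strains (log2 1, SE 0.25, adjusted p = 0.009, limma), with log2 changes of 0.88 in CB4856 and 1.05 in N2. Its level was 9.33, 9.6, 8.85 and 9.11 in reproductive CB4856 worms, against 8.15, 8.19, 7.88, 9.4 and 8.13 in juveniles. In N2 it was 9.27, 9.54, 9.09 and 9.04 in reproductive worms, against 7.89, 8.28, 7.62, 8.84 and 8.23 in juveniles. The ages were separate in N2 but overlapped in CB4856 through t1 replicate 4. Within the 4 scan sessions the log2 change was 0.18 to 1.36.

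hpr-9 was 1.47-fold higher at t2 than at t1 (log2 0.56, SE 0.18, adjusted p = 0.033, limma) and a further 1.67-fold higher at t3 than at t2 (log2 0.74, SE 0.18, adjusted p = 0.014) over both strains. Its level in CB4856 averaged 7.4 ± 0.19, 7.89 ± 0.34 and 8.67 ± 0.46 at t1, t2 and t3, and in N2 7.11 ± 0.26, 7.77 ± 0.3 and 8.44 ± 0.23 (log2 intensity, SD). The later change separated the ages wholly in N2, not in CB4856, where t3 replicate 3 was low at 7.85. The first call rested on most of the arrays: it was lost without any 1 of t1 replicates 1, 3 or 4 or t2 replicates 1, 2 or 3 (adjusted p of 0.082, 0.075, 0.055, 0.077, 0.089 and 0.073). It was lost also without background correction (log2 0.34, adjusted p = 0.056). The second was lost without t2 replicate 4 (log2 0.56, adjusted p = 0.083), and with the arrays of an age that share a label number averaged it was lost over both strains (log2 0.53, adjusted p = 0.17), in CB4856 (adjusted p = 0.2) and in N2 (adjusted p = 0.14). The log2 change was above 0 within each scan session, from 0.37 up to 0.76 for t2 over t1 in 4 sessions and from 0.43 up to 1.46 for t3 over t2 in 3. mrt-2, whose loss in worms shortens telomeres over generations, changed by 0.27 for t2 over t1 and 0.28 for t3 over t2 (adjusted p = 0.56 and 0.59), with 95% intervals of -0.36 to 0.91 in both cases.

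hpr-17, the clamp loader gene, was 1.88-fold higher at t2 than at t1 over both strains (log2 0.91, SE 0.22, adjusted p = 0.0058, limma). Its level was 8.55, 9.19, 9.5 and 8.94 in reproductive CB4856 worms, against 8.53, 7.82, 7.84, 8.42 and 7.64 in juveniles. In N2 it was 8.17, 8.46, 9.21 and 8.87 in reproductive worms, against 8.48, 7.73, 7.62, 7.83 and 7.84 in juveniles. The ages just separated in CB4856 and overlapped in N2, where t1 replicate 1 was high. The log2 change was 0.23 to 1.62 within the 4 scan sessions, and the call within N2 was lost without t2 replicate 3 (log2 0.61, adjusted p = 0.05). Between strains, its log2 ratio was above 0 on 4 of 4 reproductive and 5 of 5 old arrays, with fitted values of 0.32 and 0.3 (adjusted p = 0.42 and 0.18).

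cep-1, the p53 gene and the output towards germ cell death, had the largest change between juveniles and reproductive worms among the 8 genes. Its level was 9.94, 9.7, 9.57 and 9.2 in reproductive CB4856 worms, against 8.3, 8.75, 8.25, 8.88 and 8.59 in juveniles. In N2 it was 9.82, 9.81, 9.55 and 9.17 in reproductive worms, against 8.57, 8.3, 8.15, 8.38 and 8.43 in juveniles. The ages did not overlap in either strain. cep-1 was 2.18-fold higher at t2 over both strains (log2 1.13, SE 0.17, adjusted p = 0.00025, limma), with 2.07-fold in CB4856 and 2.33-fold in N2, and with 0.75 to 1.36 on the log2 scale within the 4 scan sessions. In the strain comparison at t2 its log2 ratio was 0.11, -0.11, 0.022 and 0.034, with an SD of 0.09.

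**Figure D3:**
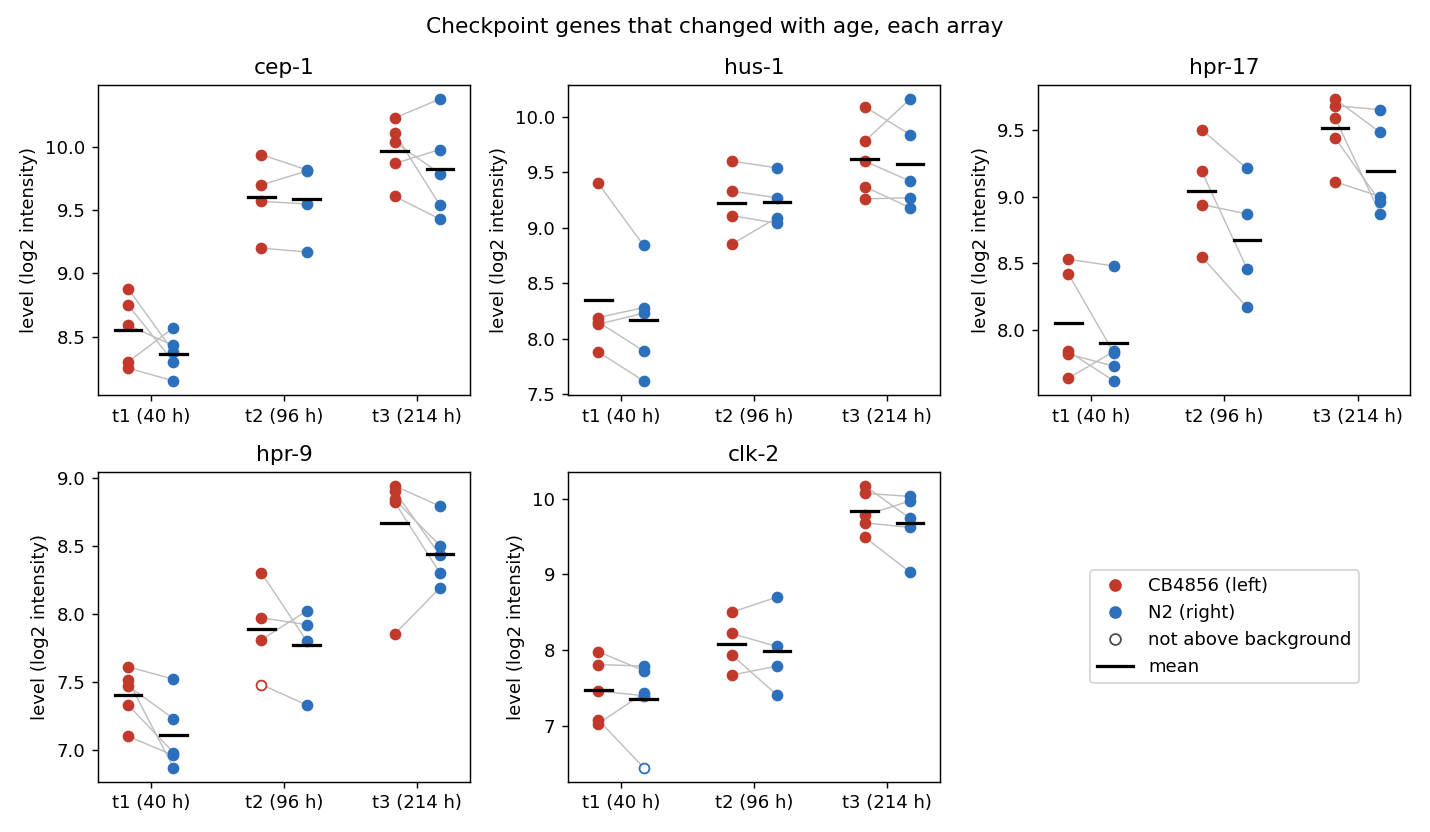
Normalized level (log2 intensity, vertical axis) of the checkpoint genes that changed with age, in each array of CB4856 and of N2 at 40, 96 and 214 hours, with open points not above background, black lines for means and grey lines joining the strains of an array. cep-1 separates t2 from t1 in both strains and clk-2 separates t3 from t2 in both strains.

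Over both strains, 4 of the 9 other elements were called higher at t2 than at t1 (cep-1, hus-1, hpr-17 and hpr-9), beside 18% of all elements called higher, and 2 were called higher at t3 than at t2 (clk-2 and hpr-9), beside 8.36%. None was called lower. Within CB4856 3 were called higher at t2 than at t1 (cep-1, hus-1 and hpr-17), beside 14.8%, and within N2 4, beside 17.5%. For t3 over t2, clk-2 and hpr-9 were called in each strain, beside 5.81% in CB4856 and 9.67% in N2. hpr-9 in CB4856 missed the threshold for t2 over t1 (log2 0.5, adjusted p = 0.053, against 0.64 and 0.012 in N2), and the strains were not called different in that change (adjusted p = 0.97). The median log2 change of the 9 elements was 0.57 for t2 over t1 and 0.46 for t3 over t2, beside 0.026 and 0.012 over all elements. The shares of all elements include those at background. Among the 11806 elements above background in at least 14 of the 28 array and dye combinations, 3554 were called higher for t2 over t1. For t3 over t2 1989 were, and the median log2 changes of this brighter set were 0.12 and 0.091. In it atm-1 was called too for t2 over t1 (adjusted p = 0.038, limma).

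**Figure D4:**
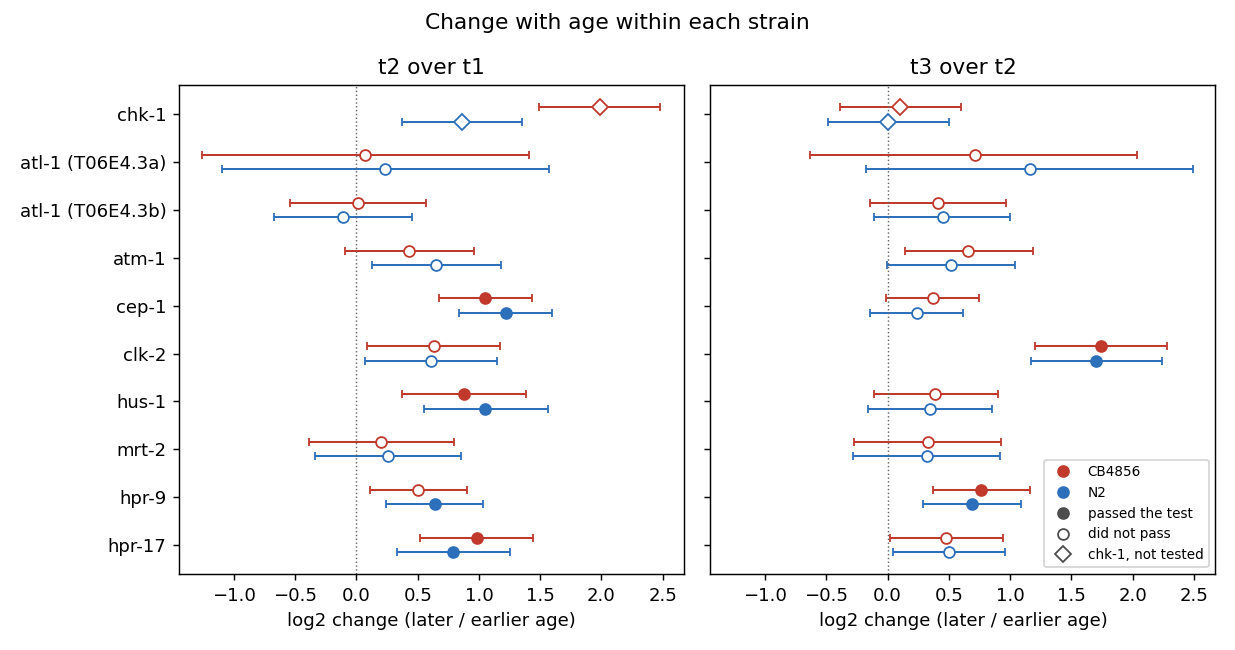
Log2 change with age (later over earlier age, horizontal axis) of each element within CB4856 and within N2, for t2 over t1 and t3 over t2, with 95% intervals as bars, filled points for calls and diamonds for chk-1, which was not tested. clk-2 stands at 3.33-fold in CB4856 and 3.26-fold in N2 for t3 over t2, and cep-1 at 2.07-fold and 2.33-fold for t2 over t1. The chk-1 change for t2 over t1 in N2 starts from a juvenile level above background on 1 of 5 arrays.

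The calls with age depended on the scaling between arrays. Without it none of the 9 elements was called for t2 over t1 over both strains, although the log2 changes of cep-1 (1.14), hus-1 (0.95) and hpr-17 (0.85) stayed close to those with it (adjusted p = 0.079, 0.14 and 0.19, limma), and that of hpr-9 was 0.34 (adjusted p = 0.59). For t3 over t2, 7 were called higher without it, while the median of all elements moved to 0.29. The calls of clk-2 for t3 over t2 and of cep-1 within each strain for t2 over t1 held under this and every other alternative that could be fitted. The alternative limited to spots of flag code 3 could not, since clk-2 had no such spot at t2 and cep-1 none at t1.

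Cell type markers moved between the same ages. Of 26 elements of oocyte and early embryo genes, 23 were called higher at t2 than at t1, and their log2 summed level was 17.18 to 17.79 at t2 against 13.82 to 16.54 at t1, over the arrays of both strains. Of 29 germ line elements 4 were called higher (13.8%, beside 18% of all elements). Of 18 sperm elements 14 were called lower at t2 than at t1, and of 15 body wall muscle elements 13 were called lower, beside 15.2% of all elements called lower. From t2 to t3, 6 germ line elements and 9 sperm elements were called higher and 8 body wall muscle elements lower, beside 8.36% and 9.92% of all elements. The part of these shifts in the checkpoint genes was not tested. In whole worms fewer cells of a type and less RNA per cell cannot be told apart.

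The rest of the DNA damage response was followed through 4 gene lists. Among 28 elements of checkpoint partners and cell cycle targets, none was called between strains at t1 and 1 each at t2 and t3. These were rfc-2, a clamp loader subunit (log2 0.42, adjusted p = 0.042, limma), and rpa-4, of the single-strand binding complex RPA (log2 1.1, adjusted p = 0.023), both higher in CB4856, which makes 3.57% of the list at either age beside 1.51% and 6.18% of all elements. Of 23 elements of CEP-1 partners and germ cell apoptosis, none was called at t1 and t2, and 2 were lower in CB4856 at t3, 8.7% of the list beside 6.18% of all elements. They were egl-1, the cell death activator induced by CEP-1 (log2 -0.64, adjusted p = 0.0031), and skr-1 (log2 -0.37, adjusted p = 0.03), a subunit of ubiquitin ligases.

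Of 35 elements of double-strand break and crosslink repair, mre-11, a nuclease of broken ends, was called at t1 (log2 0.39, adjusted p = 0.042, limma), none at t2, and 3 at t3. There rad-50, the partner of MRE-11 (log2 0.5), and the helicase gene rtel-1 (log2 0.49) were higher and brc-1, the worm BRCA1, was lower on 1 of its 2 elements (log2 -0.67) in CB4856, with adjusted p of 0.029, 0.029 and 0.024. Of 27 elements of excision, mismatch and translesion repair 1 was called, xpc-1, a damage recognition factor, lower in CB4856 at t3 (log2 -1.11, adjusted p = 0.012). The median log2 ratios of the 4 lists ran from 0.089 up to 0.25 in juveniles, from -0.032 up to 0.1 in reproductive worms and from -0.04 up to 0.13 in old worms. Of the break repair list 2.86%, 0% and 8.57% were called at the successive ages, and of the excision repair list 3.7% at t3, beside 1.92%, 1.51% and 6.18% of all elements. With the scan session as a block no element of the 4 lists was called between strains at any age. The rfc-2 call was lost without t1 replicate 2, without any 1 array of t2, or without t3 replicate 1, 3, 4 or 5. The counts at t3, 1, 2, 3 and 1 in the order of the lists, were 0, 1, 0 and 0 without t3 replicate 2 or without t3 replicate 4, and 0, 1, 0 and 1 without t3 replicate 5. Without t3 replicate 1 the break repair count was 1, and with each array left out in turn the 4 counts spanned 0 to 2, 1 to 3, 0 to 4 and 0 to 3. The mre-11 call was lost without t1 replicate 3, 4 or 5, t2 replicate 1 or 4, or t3 replicate 1, 2, 4 or 5.

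With age the same lists moved in 1 main direction. At t2 over t1, 18 checkpoint and cell cycle elements were called higher and 1 lower, of CEP-1 and apoptosis elements 10 higher and 1 lower, of break repair elements 17 higher, and of excision and mismatch repair elements 16 higher, beside 18% of all elements called higher and 3554 of the 11806 brighter ones. The median log2 changes of the lists were 0.8, 0.41, 0.62 and 0.96, beside 0.026 over all elements. In either direction 67.9%, 47.8%, 48.6% and 59.3% of the lists were called, beside 33.2% of all elements. With each array left out in turn these counts spanned 16 to 21, 8 to 11, 14 to 20 and 15 to 17. Without normalization between arrays 1310 of all elements were called higher, against 4058 with it. cyb-2.1 and cyb-3, which encode B-type cyclins, were 4.56-fold and 4.12-fold higher over both strains (adjusted p = 0.0018 and 0.004, limma). cdc-25.3, of the CDC25 phosphatases that CHK1 restrains in vertebrates, was 5.49-fold higher at t2 than at t1 in CB4856 (adjusted p = 1e-06), and in N2, where no juvenile array was above background, at least 9.52-fold (adjusted p = 8.1e-09). A bound of this kind sets the mean of the bright group against the lowest signal above background on the dim arrays. It holds for the means, carries no interval, and single arrays can lie below it.

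ced-3 and ced-4, which encode the caspase and its activator, were 3.31-fold and 2.34-fold higher at t2 than at t1 over both strains (adjusted p = 0.0063 and 6.9e-05, limma). egl-1 was higher by at least 1.79-fold in CB4856 and by at least 2.41-fold in N2 (adjusted p = 1.4e-06 and 4.2e-08), with no juvenile array above background. polq-1, the gene of a DNA polymerase that joins broken ends, was 3.05-fold higher, and xpa-1, pcn-1 (the replication clamp PCNA) and mlh-1 (mismatch repair) were 3.76-fold, 3.3-fold and 3.25-fold higher (adjusted p of 0.00012, 1.5e-06, 7.4e-05 and 0.00013). Lower at t2 were cdc-25.4 (log2 -1.12 in CB4856, adjusted p = 0.0018, and at least 1.83-fold lower in N2, adjusted p = 0.00083) and phg-1 (at least 1.91-fold lower in CB4856 and 2.73-fold in N2, adjusted p = 0.00012 and 3.4e-05).

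At t3 over t2, 3, 7, 12 and 2 elements of the 4 lists were called higher and none lower. These were 10.7%, 30.4%, 34.3% and 7.41% of the lists, beside 8.36% of all elements called higher, so the first and the last list were near that share. Without normalization between arrays 6046 of 22490 elements were called higher, against 1880 with it. rad-51, the recombinase of break repair, was 2.47-fold higher over both strains (adjusted p = 0.0096, limma) and rad-54.L 2.27-fold (adjusted p = 0.0021). egl-1 was 1.83-fold higher (adjusted p = 0.00043). wee-1.3, the inhibitory kinase of CDK-1, was 1.99-fold higher (adjusted p = 0.028) and cye-1, cyclin E, 1.82-fold (adjusted p = 0.01). The counts depended on which array was left out. Without t2 replicate 4 they were 1, 1, 4 and 0, and over all arrays left out in turn they spanned 1 to 8, 1 to 8, 4 to 16 and 0 to 3.

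The elements whose level ran most like that of chk-1 over the 28 array and dye combinations were sought among 11806 elements above background in at least 14 of them. The highest Pearson correlations were those of T02G5.10 (0.969), ife-5, a cap-binding translation factor eIF4E (0.949), T16H12.1 (0.948), skr-11, of the Skp1 family (0.946), and fbxa-113, an F-box protein (0.939). The fitted log2 ratio of each was between 1.73 and 4.62 at t2 and t3, and in N2 each was above background on 2 to 8 of 14 arrays. The fitted log2 ratios at t1, t2 and t3 were 1.35, 4.01 and 4.62 for T02G5.10, 1.81, 3.21 and 2.72 for ife-5, and 0.61, 2.76 and 2.69 for skr-11. At t1, where no N2 array was above background, the mean of ife-5 was at least 2.95-fold and that of T02G5.10 at least 2.09-fold higher in CB4856. On single juvenile arrays the log2 ratio was 1.34 to 2.39 for ife-5 and 0.31 to 2.11 for T02G5.10. A further element of T02G5.10 had log2 ratios of 0.095 to 1.1 over the juvenile arrays, with a bound of 1.3-fold. Over the old arrays it had 0.00066 to 1.19, against 4.3 to 5.18 for the element named. The likeness was sought to the very chk-1 values that chose the genes, and the background filter lets in elements wholly or mainly through CB4856. ife-5 had 14 CB4856 and 6 N2 spots above background, enough in CB4856 alone. T16H12.1 passed with 12 CB4856 and 2 N2 spots and fbxa-113 with 10 and 4. The points share arrays, strains and ages, so the correlations only describe a pattern over 6 strain and age groups.

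The other checkpoint genes had lower correlations with chk-1 than the elements named above. The chk-1 values include the strain difference that chose the genes, so genes without such a difference must score lower. hpr-17 had the highest correlation, 0.603 (rank 217 of 11806), followed by cep-1 (0.539, rank 601), hpr-9 (0.537, rank 620), atm-1 (0.521, rank 786), mrt-2 (0.485, rank 1183), hus-1 (0.465, rank 1402) and clk-2 (0.396, rank 2207). By Spearman correlation mrt-2 was highest among them (0.602, rank 155.5), followed by hpr-17 (0.558, rank 302.5). The atl-1 elements did not pass the background filter.

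The genes beside chk-1 on chromosome V were read in the order of the RefSeq annotation, 10 on each side. Of these 20 genes 15 had an element, with 17 elements in all. The nearest, gid-7 before and oac-55 after chk-1, had fitted log2 ratios between -0.055 and 0.064 at all ages, though they were above background on few arrays (3 and 1 of 14 in CB4856 and 4 and 2 of 14 in N2). Of the 17 elements 2 were called in juveniles, 1 in reproductive and 3 in old worms, beside 1.92%, 1.51% and 6.18% of all elements.

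**Figure D5:**
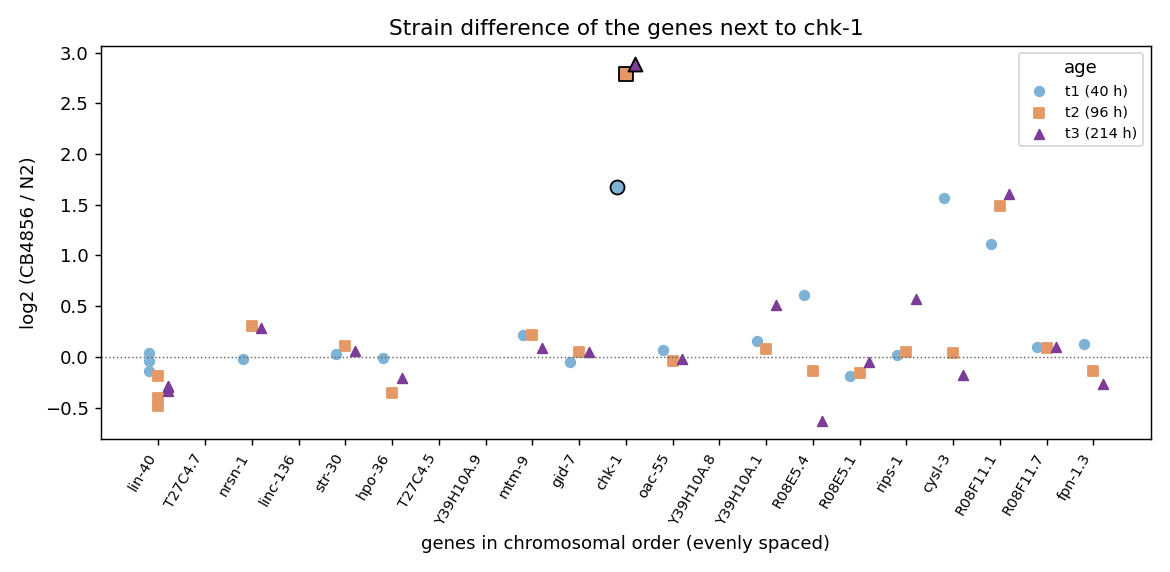
Fitted log2 ratio of CB4856 over N2 (vertical axis) at t1, t2 and t3 for chk-1 and the elements of the 10 genes on each side, evenly spaced in chromosomal order. chk-1 stands at 1.67, 2.79 and 2.89 between gid-7 and oac-55 near 0, and R08F11.1, the eighth gene after it, at 1.11, 1.49 and 1.61.

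R08F11.1, the eighth gene after chk-1, was higher in CB4856 at t1, t2 and t3, with log2 ratios of 1.11, 1.49 and 1.61 (adjusted p = 0.0072, 0.0028 and 3e-04, limma). N2 was above background on 0 of 5, 1 of 4 and 0 of 5 arrays, so that the difference of the means was at least 1.66-fold at t1 and at least 2.47-fold at t3. Single arrays had log2 ratios of 0.91 to 1.35 at t1 and of 0.64 to 2.46 at t3. cysl-3, a cysteine synthase-like gene next to it, was 2.97-fold higher in CB4856 at t1 (log2 1.57, adjusted p = 0.00012), against log2 ratios of 0.041 at t2 and -0.18 at t3. Y39H10A.1 and rips-1 were called at t3 (log2 0.51 and 0.57, adjusted p = 0.028 and 0.046), on 4 of 5 arrays above background in CB4856 and 3 of 5 in N2. The count at t3 was 1 without t3 replicate 2 or 4, and 0 with the scan session as a block.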

How the data were processed

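Two-colour oligonucleotide arrays of 14 hybridisations were used. The authors deposited scanner quantitation files with spot and local background intensity and a flag code, neither corrected nor normalized (per the file headers, ScanArray Express), and a table of log2 ratios, whose processing notes name limma. Here intensities were background-corrected (normexp, offset 50), normalized by loess within arrays (control spots weight 0) and Aquantile between arrays, and ratios turned to CB4856 over N2 (R 4.3.3, limma 3.58.1, statmod 1.5.0). Strain differences came from a fit of 14 ratios with age and dye terms, ages over both strains from mean log2 intensities, and ages within a strain from a separate channel fit (intraspot correlation 0.464). The 23232 spots per array held 742 controls or empty spots, which were left out, and 22490 elements tested. Of the member elements 8 were named by the platform table and 2 (atl-1) by coding sequence name. The scripts were tested on simulated data. The deposited log2 ratios were used as an alternative, turned to the same direction.

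The members, gene lists and marker lists were chosen with earlier results of these data known. Named were all members; of each list and comparison, called elements among the 3 of largest change in each direction; the 5 elements most like chk-1; and called neighbours. Alternatives covered background, normalization within and between arrays, dim elements, flags, outliers, arrays in the fit, replicate number, scan session, dye term, the deposited ratios, the methods' linear models and each array left out. Quantile normalization of all 28 channels was added after seeing the data. Gene order came from the RefSeq table, and sequences were not used here. The number of arrays limits the precision.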

Additional observations from a re-analysis of the deposited data

Results flagged for a closer look

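Of 90 sets of 4 or 5 arrays tested among the 10 elements (levels in each strain and log2 ratios at each age), 10 held an array that stood apart from the rest of its group, and chance flags about 1 in 20. On t3 replicate 5, the T06E4.3a element of atl-1 had a log2 level of 10.91 in CB4856 (6.05 to 6.91 on the other arrays) and 10.84 in N2 (6.9 to 7.46). The T06E4.3b element had 7.91 in CB4856 on the same array (5.92 to 6.16), and mrt-2 had 10.21 in N2 (8.33 to 8.76). The log2 ratio of atm-1 was 0.82 on t2 replicate 2 (-0.18 to -0.1) and that of hus-1 was -0.25 on t2 replicate 3 (0.053 to 0.066). On t1 replicate 4 the level of hus-1 in CB4856 was 9.4 (7.88 to 8.19) and that of clk-2 in N2 was 6.45 (7.4 to 7.79), where the spot was not above background. hpr-9 had 7.85 in CB4856 on t3 replicate 3 (8.82 to 8.94) and hpr-17 had 8.48 in N2 on t1 replicate 1 (7.62 to 7.84).

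Among the neighbours of chk-1, the strain difference of cysl-3 changed with age by a test of the difference itself: its log2 ratio of CB4856 over N2 was lower at t2 than at t1, with a change of -1.53 (SE 0.24, adjusted p = 0.014, limma), beside 0.382% of all elements called for this change.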

How the results depend on the processing

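Results were recomputed under 16 alternatives and with each of the 14 arrays left out, which gave 2649 tested values of member elements, of which 2570 had the same call. Many of these are strain comparisons of elements that were not called, and omitting the normalization between arrays leaves the ratios unchanged. The share therefore says little about the calls with age, which did change. Without background correction, and with the deposited log2 ratios, chk-1 was 2.1 at t2 and 2.46 at t3 (2.79 and 2.89 as reported). The counts of other members called for t2 over t1 and t3 over t2 over both strains, t2 over t1 in CB4856 and in N2, and t3 over t2 in CB4856 and in N2 were 4, 2, 3, 4, 2 and 2. They were 0, 7, 1, 2, 7 and 7 without normalization between arrays, and 0 throughout with only spots of flag code 3, which 24% of element spots carried. That 0 was largely fixed in advance: cep-1, hpr-17 and hpr-9 had no such spot at t1, nor clk-2 and hpr-9 at t2. Of the calls with age, only those of hus-1 could be fitted there. For t2 over t1 in CB4856 hus-1 was then -0.12, on 1 array at t1 and 2 at t2. With the scan session as a block the count for t2 over t1 in CB4856 was 5. With same-numbered arrays of an age averaged, which leaves fewer samples, the counts for t3 over t2 were 1 over both strains, 1 in CB4856 and 1 in N2. The cause of the other changes was not tested. By Spearman correlation 2 of the 5 elements most like chk-1 were shared.

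Leaving out 1 array gave 1.5 to 1.73, 2.7 to 3.06 and 2.77 to 3.02 for chk-1 at t1, t2 and t3, 0 other members called between strains or in their change with age, and, in the order above, 3 to 5, 1 to 3, 3 to 5, 2 to 5, 1 to 3 and 2 to 3. Over all elements the counts called between strains were 66 to 597 at t1, 1 to 593 at t2 and 118 to 1594 at t3 over the alternatives. Without normalization between arrays 95.6% of the calls for t3 over t2 were higher, against 45.7% with it, and 38.1% against 54.4% for t2 over t1.

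Replicate numbers were not taken to pair the arrays of different ages. Over 23 same-numbered pairs the deviations correlated from -0.293 to 0.332 in ratio (median 0.0339, 9 over 0.1) and from -0.333 to 0.294 in level (median 0.111, 13 over 0.1). For 42 pairs of different numbers the medians were -0.00773 in ratio (12 over 0.1) and -0.014 in level (9 over 0.1). In level, same-numbered arrays thus more often deviated together, whereas the main fits of age treat the arrays as independent. With the replicate block the count for t2 over t1 in CB4856 was 5 and no call was lost. Elements near the background, above all atl-1, limit what small differences can be seen.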
